A study of Homo sapiens with 8 samples.

Results

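Forkhead genes encode transcription factors that share the winged-helix DNA-binding domain. Members were taken as the GENCODE protein-coding genes whose symbol is FOX followed by a letter from A to S and a number, which gave 52 of the 19609 coding genes annotated on chromosomes 1 to 22 and X. The rule works on names, so it also took FOXL2NB, a neighbour of FOXL2 that encodes no forkhead factor. It took FOXD4 and its near-identical copies FOXD4L1, FOXD4L3, FOXD4L4, FOXD4L5 and FOXD4L6 as well. Without FOXL2NB and these 5 copies 46 genes are left.

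The accessible chromatin of HEK293T, an established line from human embryonic kidney that expresses SV40 large T antigen, was mapped by ATAC-seq, in which a transposase inserts adapters into open DNA. Of the 8 libraries, 4 came from cells given an H2A lentivector and 4 from cells given an H2A(E92K) lentivector, with a glutamate-to-lysine change in the acidic patch on the nucleosome surface, and no library was treated otherwise. The groups are called H2A and E92K here, and their comparison addresses whether the mutant histone changes which sites are open. The labels do not say how much of the cells' own H2A remains, nor whether each replicate is a culture of its own. The p-values therefore speak only of the spread among these libraries, which may be technical.

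Most forkhead factors bind DNA as monomers. Some members, the FOXA factors foremost, are pioneer factors that can bind sites wrapped in nucleosomes. FOXO factors are held in the cytoplasm by insulin and growth factor signalling, and FOXM1 drives the genes of mitosis. Most other members pattern embryonic tissues, and their genes are usually expressed in a few lineages only. Expression was not measured in these libraries, so an open promoter is not read here as an expressed gene. In kidney development FOXD1 marks the stroma, FOXC1 and FOXC2 act in the intermediate mesoderm, and FOXI1 directs the intercalated cells of the collecting duct.

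The lists held 55527 to 62044 peaks per library. Genome-wide background, recovered from the authors' fold and p-value, was 2.52 to 2.93 fragments in H2A and 2.23 to 2.68 in E92K, so that sequencing depth leaned towards H2A, and the part of depth in any result was not tested. All 8 genes listed as open in HEK293T (SIX2, PAX2, WT1, SALL1, LHX1, NEFL, NEFM and INA) had a promoter peak in every library. Of 11 markers of blood, endothelium, hepatocytes and kidney tubule, 9 had none in any library, and PTPRC and APOA1 had one in some. Peak lists hold no measure of the vector itself, so the labels of the groups could not be checked against it.

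A promoter, here the stretch within 1000 bp of any transcription start site (TSS) of the gene's basic protein-coding transcripts in GENCODE, was called open where a peak touched it. By this measure 32 forkhead promoters (61.5%) were open in all 8 libraries, 2 (3.85%) in some and 18 (34.6%) in none, beside 68.0%, 6.34% and 25.6% of all coding genes. FOXL2NB and the FOXD4-like copies all fell in the last class, so the shares depend on whether they are counted. Among the 46 genes left without them the same 32 promoters were open in all 8 libraries. FOXO (FOXO1, FOXO3, FOXO3B, FOXO4 and FOXO6), FOXJ (FOXJ1, FOXJ2 and FOXJ3), FOXB (FOXB1 and FOXB2), FOXF (FOXF1 and FOXF2) and FOXK (FOXK1 and FOXK2) were open throughout. So were the lone genes FOXM1, FOXQ1 and FOXS1. The promoters of FOXA1, FOXA3, FOXC2, FOXD1, FOXD2, FOXD3, FOXE1, FOXI3, FOXN2, FOXN3, FOXN4, FOXP1, FOXP2 and FOXP4 were open in every library as well. FOXA2 and FOXC1 made up the middle class.

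The 18 genes without a promoter peak included FOXP3 of regulatory T cells, FOXN1 of the thymic epithelium, FOXE3 of the lens, FOXI1 of the inner ear and intercalated cells, FOXL2 of the ovary and FOXH1, the partner of SMAD proteins in nodal signalling. FOXI2, FOXL1, FOXL2NB, FOXL3, FOXR1 and FOXR2 had none either, nor had FOXD4 and its 5 copies. How reads that match several copies were treated is not given in the sources used here, so the missing peaks at the FOXD4 copies are uncertain.

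Of those 18 genes, 9 still had a region with a peak in all 8 libraries within the gene or 10 kb of it. The share among other closed coding genes is not given here. No peak at all lay over that span at 7 of the 52 members, FOXD4L3, FOXD4L4, FOXD4L5 and FOXD4L6 among them. Over all coding genes, 17821 of 19609 had a peak there. FOXL1, a gut mesenchyme factor, lies beside FOXC2, and a region present in all libraries at a mean fold of 10.6 was centred 2372 bp before its TSS. That region also covers 86576368 on chromosome 16, the start of a FOXL1 transcript outside the basic set. With the starts of every annotated transcript, an alternative chosen after seeing the data, FOXL1 was open in all 8 libraries and FOXR1 in 4 H2A and 1 E92K libraries, and 33 forkhead promoters were open in all libraries, 3 in some and 16 in none. The nearest region of FOXH1, also in all libraries, was centred 2279 bp before its TSS and covered the TSS of PPP1R16A. A region 4635 bp before the FOXP3 TSS covered that of PPP1R3F at a mean percentile of 97.5. With windows of 2000 bp each side FOXH1 became open in 4 H2A and 4 E92K libraries, and FOXL1 and FOXL2 each in 3 H2A and 4 E92K libraries. The 32 promoters open throughout were 28 to 35 under other windows and peak rules. FOXE1, a thyroid factor, and FOXS1 were open in 0 libraries with windows of 500 bp, and FOXK1 and FOXN4 in 3 H2A and 4 E92K libraries with only peaks of −log10 q of 5 or more.

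**Figure D1:**
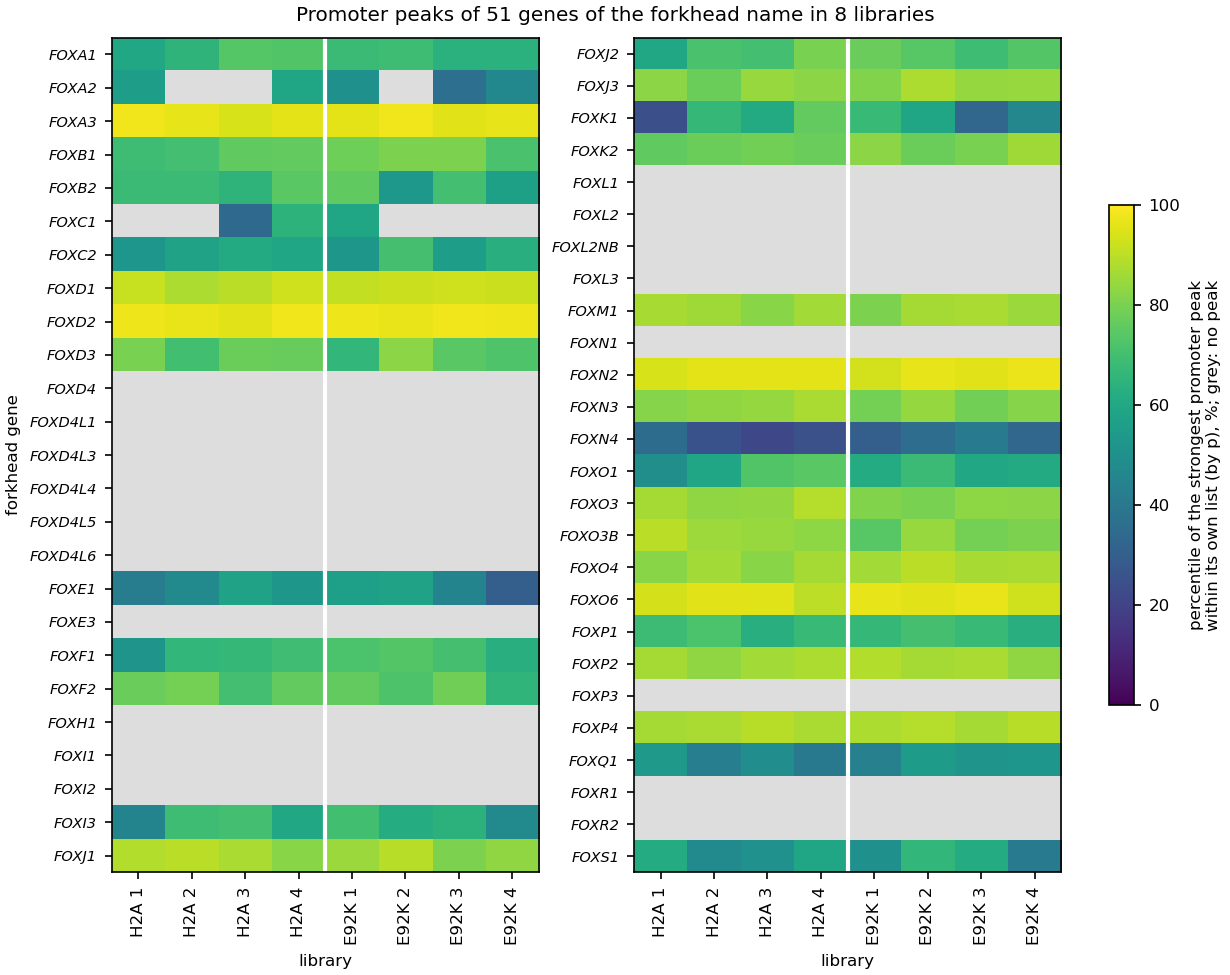
Each row is a forkhead gene (51 shown) and each column a library; colour gives the percentile (%) of the strongest promoter peak within its own list, ranked by p-value, and grey marks a promoter without a peak. The white line parts H2A from E92K, FOXD2 stays between 95.6 and 97.9, and FOXA2 and FOXC1 alone are coloured in some libraries and grey in others.

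The strength of a peak is given by the authors' fold of its summit over local background and by its percentile by p-value within its own list, both used only as descriptions. Over the 32 promoters open throughout, the mean percentile had a median of 77.2 (quartiles 65.6 and 85.7) and ran from 30.9 at FOXN4 to 97.1 at FOXD2. Over the 13341 coding promoters open in all libraries the median was 88.4 (quartiles 77.8 and 94.7). The 6 highest members were FOXD2, FOXA3, FOXN2, FOXO6, FOXD1 and FOXP4, and the lowest after FOXN4 were FOXQ1 at 48.6, FOXE1 at 48.8, FOXK1 at 54.3 and FOXS1 at 54.7.

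The sequences of the pair of strongest promoters are shown because both carry the GC box, the site of SP factors, and neither carries the forkhead core. They are hg38 plus-strand stretches around the strongest summit, chr1:47437733-47437933 for FOXD2 and chr19:45863195-45863376 for FOXA3, where the window stopped at an annotated UTR. Capitals mark GC boxes (GGGCGG, or CCGCCC on the other strand) and the ETS core (CCGGAA, or TTCCGG).
FOXD2: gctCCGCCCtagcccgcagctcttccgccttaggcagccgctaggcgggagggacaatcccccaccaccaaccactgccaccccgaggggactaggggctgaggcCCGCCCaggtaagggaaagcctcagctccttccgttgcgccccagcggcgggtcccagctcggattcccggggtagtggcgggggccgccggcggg
FOXA3: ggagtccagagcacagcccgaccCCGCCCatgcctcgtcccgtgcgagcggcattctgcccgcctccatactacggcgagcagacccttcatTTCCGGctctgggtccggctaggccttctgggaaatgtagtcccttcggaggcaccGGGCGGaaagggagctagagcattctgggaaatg
FOXD2 held 2 GC boxes here and no ETS core, and FOXA3 held 2 GC boxes and 1 ETS core.

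FOXD2, a factor of the kidney and facial mesenchyme, had folds of 9.25, 9.05, 8.45 and 9.46 in H2A libraries 1 to 4 and 9.40, 8.81, 9.40 and 9.15 in E92K libraries 1 to 4. The means were 9.05 ± 0.435 and 9.19 ± 0.278 (SD, n = 4 each), and the groups overlapped. FOXD1, the marker of kidney stroma, was lower, at 6.99, 6.27, 6.41 and 7.35 in H2A and 6.67, 6.91, 7.47 and 7.58 in E92K. Here too the ranges ran into each other. FOXD3, a neural crest and stem cell factor, stood at 5.02, 4.19, 4.76 and 4.91 against 3.89, 5.29, 4.49 and 4.62, with both the highest and the lowest value in E92K.

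FOXA3, a liver and pancreas factor, had folds of 10.3, 9.75, 9.14 and 10.1 in H2A and 9.36, 9.97, 9.64 and 10.2 in E92K, again overlapping. Its summits lay 1047 to 1062 bp before the canonical FOXA3 TSS, and the same region covered the TSS of SYMPK, a polyadenylation scaffold gene. FOXA1 shared its promoter region with TTC6 and FOXM1 shared its own with RHNO1 and TULP3, so for these 3 members a peak cannot be assigned to the forkhead gene alone. Only the starts of other coding genes were counted here, and regions that cover the start of a noncoding gene, as at FOXB1, come on top. If the summit itself had to fall in the window, FOXA3 would be open in no library. The same holds of FOXF2, a mesenchymal factor of gut and palate, whose summits lay 1150 to 1282 bp before its TSS.

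FOXN2, a widely expressed member, had 7.11, 8.10, 7.94 and 8.12 in H2A and 7.09, 7.74, 7.61 and 8.72 in E92K. FOXP4, a factor of lung and gut epithelium, had 7.93, 8.41, 8.91 and 7.88 in H2A and 8.42, 8.64, 8.43 and 9.81 in E92K. In both genes the highest value was that of E92K library 4, and the other E92K values lay within or below the H2A range. FOXM1, the mitotic regulator, was among the even ones, with 8.65, 8.51, 8.05 and 8.84 in H2A and 7.62, 8.82, 9.10 and 8.79 in E92K. Its lowest and highest values both came from E92K.

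Among the FOXO genes, the effectors of insulin signalling, FOXO6 was strongest by percentile, with folds of 8.03, 8.67, 8.69 and 7.26 in H2A and 9.29, 8.56, 9.35 and 8.81 in E92K. One E92K value fell between the H2A values and 3 lay above all of them. FOXO1, the insulin-responsive factor of liver and other tissues, had 2.92, 3.41, 4.27 and 4.27 against 3.55, 3.78, 3.32 and 3.67, and the E92K values all lay inside the H2A range. FOXO3, the most broadly acting family member, had 4.01, 3.83, 3.84 and 4.40 in H2A and 3.67, 3.28, 3.69 and 3.85 in E92K. There the E92K values were on the low side, with 1 of 4 inside the H2A range.

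FOXO4, an X-linked FOXO gene, and FOXN4, a factor of retinal progenitors and spinal interneurons, were the 2 of the 32 promoters whose folds did not overlap between the groups; they were picked after their values were seen. FOXO4 had 6.07, 7.67, 6.59 and 7.69 in H2A and 7.69, 8.78, 8.09 and 8.51 in E92K, means of 7.01 ± 0.809 and 8.27 ± 0.476 (SD, n = 4 each), and the closest values parted only at 7.691 against 7.694. FOXN4 had 3.54, 3.24, 3.05 and 3.01 in H2A and 3.54, 3.55, 4.08 and 3.65 in E92K, and here the closest values were 3.536 and 3.537. By percentile both genes overlapped between the groups. Of the 13341 coding promoters open in all libraries 2.19% had every E92K fold above every H2A fold and 1.52% the reverse, against 2 and 0 of 32. The median fold of a whole list was 5.11 to 5.38 in H2A and 5.29 to 5.64 in E92K, and its part in these values was not tested.

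Fold and percentile ordered the FOXO genes differently. FOXO3B, a copy derived from FOXO3 whose promoter region also covers the TSS of ZNF286B, had the highest mean fold of the family, 12.5, from pileups of 46 to 95 fragments over local backgrounds of 3.75 to 5.70. The FOXO3 promoter had a mean fold of 3.82, from pileups of 180 to 280 over backgrounds of 48.4 to 63.3. The mean percentiles of FOXO3B and FOXO3 were 82.6 and 83.6. The FOXO3B peak cannot be assigned to that gene alone, and how reads that match several copies were treated is not given.

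FOXK1 and FOXK2, repressors of autophagy and starvation genes, were both open throughout. FOXK1 ranged most of the named promoters, at 3.02, 5.86, 5.61 and 7.29 in H2A and 6.29, 4.93, 3.44 and 4.54 in E92K, and its percentile ran from 24.6 to 75.9. FOXK2 had 6.52, 6.96, 7.32 and 6.76 in H2A and 8.03, 6.34, 7.34 and 9.35 in E92K. Library 1 of H2A was the weakest for FOXK1, and for both genes the groups overlapped.

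FOXP1, a factor of lymphocytes, heart and brain, had folds of 4.57, 5.00, 4.16 and 6.66 in H2A and 4.64, 3.60, 6.83 and 6.64 in E92K. Its strongest promoter peak was not the same one in every library, since FOXP1 has 22 TSSs spread over 519 kb. The groups overlapped.

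**Figure D2:**
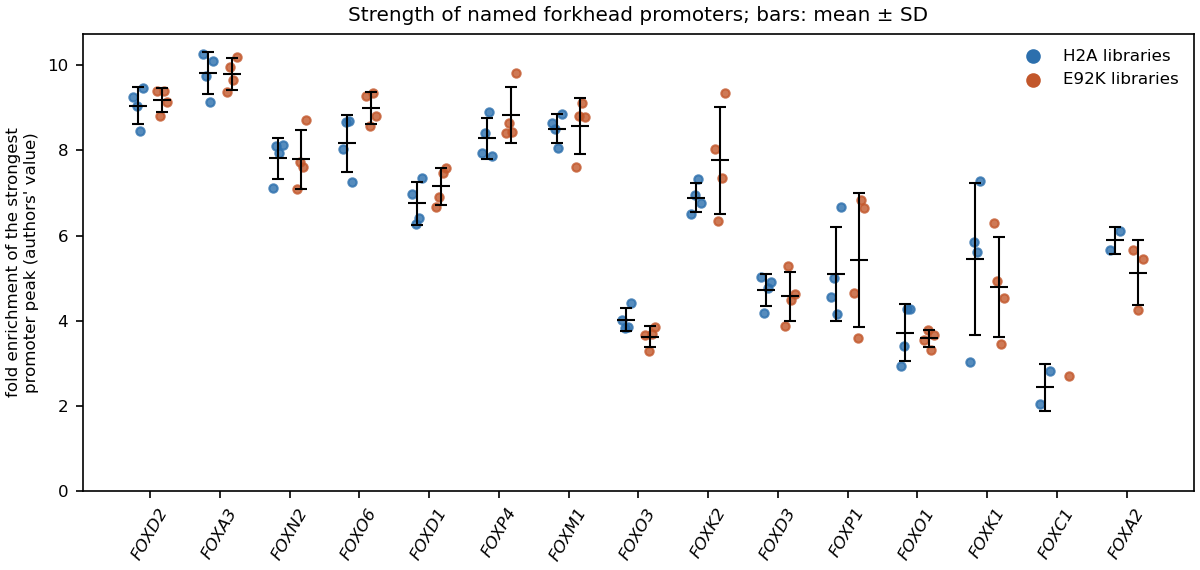
Points are the authors' fold enrichment of the strongest promoter peak in single libraries for 15 named genes, ordered by mean percentile; black bars are mean ± SD where a group had more than 1 value. FOXD2 and FOXA3 lie above 8 in every library, FOXK1 spreads from 3.02 to 7.29, and the groups overlap at each gene shown with values in all 8 libraries. FOXA2 and FOXC1 have values in some libraries only.

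The 2 promoters open in some libraries sat beside steadier regions. FOXC1, a factor of eye, kidney and vessel mesoderm, had a promoter peak in H2A libraries 3 and 4, at folds of 2.05 and 2.81, and in E92K library 1 at 2.71. FOXA2, the node, floor plate and endoderm factor, was open in H2A libraries 1 and 4, at 5.66 and 6.11, and in E92K libraries 1, 3 and 4, at 5.67, 4.26 and 5.46. Neither gene separated the groups.

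At FOXA2 the class came from where a peak ended. A region upstream, chr20:22586080-22587296, had a peak in all 8 libraries, at folds of 5.66, 6.62, 6.40 and 6.11 in H2A and 5.67, 4.82, 4.26 and 5.46 in E92K. Its near edge lay 987, 1008, 1160 and 980 bp before the outer TSS in H2A libraries 1 to 4 and 966, 1255, 625 and 796 bp in E92K libraries 1 to 4, so 5 edges fell inside the 1000 bp window and 3 outside. A weaker region over the TSS itself, chr20:22584766-22585470, had a peak in H2A libraries 1 and 4 and in no E92K library. With windows of 2000 bp FOXA2 was open in all 8 libraries.

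At FOXC1 the promoter peak stood on a high local background. The 3 peaks had pileups of 88 to 143 fragments over local backgrounds of 40.8 to 50.2. Regions centred 5377, 2884 and 1990 bp before the TSS and 4614 bp after it had a peak in every library, on both sides of the promoter peak. The stretches around the strongest FOXA2 and FOXC1 summits are printed to show that both are rich in CpG and that only the FOXC1 stretch holds any of the motifs searched. They are chr20:22586814-22587014 and chr6:1609776-1609914 of hg38, plus strand, with capitals for the GC box, for the CCAAT box (CCAAT, or ATTGG on the other strand) and for the ETS core; the FOXC1 stretch stops at an annotated UTR.
FOXA2: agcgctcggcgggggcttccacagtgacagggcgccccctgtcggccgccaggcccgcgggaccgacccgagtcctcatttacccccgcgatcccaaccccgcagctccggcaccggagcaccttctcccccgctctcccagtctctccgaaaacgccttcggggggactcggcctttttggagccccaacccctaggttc
FOXC1: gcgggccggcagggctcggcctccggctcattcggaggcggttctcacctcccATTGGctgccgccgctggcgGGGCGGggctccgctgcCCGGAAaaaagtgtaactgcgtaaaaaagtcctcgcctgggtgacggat
FOXC1 held 1 GC box, 1 CCAAT box and 1 ETS core, and the FOXA2 stretch held none of them.

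The number of open forkhead promoters was 33, 32, 33 and 34 in H2A libraries 1 to 4 and 34, 32, 33 and 33 in E92K libraries 1 to 4. Both means were 33 ± 0.816 (SD, n = 4). No forkhead promoter was open in 4 libraries of one group and 0 of the other. Over all coding genes 0.0255% separated that way towards H2A and 0.0051% towards E92K, so a count of 0 among 52 is near the background. Fisher's exact test, two-sided, cannot fall below 0.0286 with 4 against 4 libraries. It reached that p at 6 of 19609 coding promoters and at 0 forkhead promoters, and no promoter passed after Benjamini-Hochberg adjustment.

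Several members have more than 1 TSS, and they were not all open. Of the 116 TSSs of the family, 72 were open in all libraries, 11 in some and 33 in none. FOXP1 had 15 of its 22 open in all libraries and 3 in none, and FOXP2, the speech and language factor, 11 of 14 in all and 1 in none. The canonical TSS of FOXO3 and the one before it were open in all 8 libraries, and the TSS at 108656346 of chromosome 6, inside the gene, in none. FOXN3, a checkpoint suppressor, had 3 of 5 TSSs open in all libraries and 2 in none.

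Open members had starts richer in GC and CpG in the median. Within 500 bp each side of the canonical TSS, promoters open in all libraries had a median GC content of 68.8% and a median CpG observed over expected of 0.856. Those open in none had 59.0% and 0.680, and all coding genes had 61.4% and 0.727. The class open in none includes the FOXD4-like copies, whose missing peaks are uncertain and which pull its medians down. That its medians lie below those of all coding genes is therefore not taken to hold for the other closed members. Their values ran from 43.4% and 0.325 at FOXD4L5 to 59.0% and 0.722 at FOXD4L4. The canonical FOXP2 start was open and poor in CpG, at 39.5% GC and a ratio of 0.180, and FOXS1, a factor of pericytes and other perivascular cells, was next at 0.458. The strongest FOXP2 promoter peak lay near another TSS, and within 150 bp of its summit GC was 53.2% and the ratio 0.708. FOXL3, FOXE3, FOXI2 and FOXL2 were closed although their ratios were 0.791, 0.787, 0.773 and 0.761. The values are descriptions of the members, and no test was run on them.

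Motifs were counted within 150 bp of the strongest summit on both strands. The forkhead core TGTTTAC stood in 2 of 34 forkhead promoters with a peak (5.88%), those of FOXO4 and FOXP2, and in 1.58% of 14584 coding promoters with a peak. The variant TGTTTGC stood in 0 of 34, beside 2.13%. The GC box GGGCGG was found in 67.6% of the 34 and 72.1% of coding promoters, CCAAT in 38.2% and 33.6%, and the ETS core CCGGAA in 26.5% and 27.8%. A match is a stretch of letters and not a bound site.

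The peaks of the 8 lists were merged where they overlapped or touched, and 259 of the resulting 96872 regions fell on a forkhead gene or within 10 kb of one. Of these, 119 (45.9%) had a peak in all 8 libraries and 57 (22.01%) in 1 library only, beside 38.1% and 26.5% of all regions. Outside the promoters the share in all libraries was 37.3% of 209. Introns held 140 of the regions, flanks 59, promoters 50 and exons 10. FOXP1 held 58, FOXP2 30 and FOXN3 17, together 105. Relative to length FOXO1 and FOXP1 were densest of the long genes, at 9.93 and 8.93 regions per 100 kb, and FOXP2 and FOXN3 had 4.78 and 3.31. TGTTTAC stood within 150 bp of the summit in 5.41% of the 259 regions and in 4.95% of all regions. The CTCF core stood in 5.02% and 9.35%, and no test was run on these shares.

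No region at a forkhead gene was called in 4 H2A and 0 E92K libraries, and 3 were called in 0 H2A and 4 E92K libraries. The background over all regions was 0.184% for the first kind and 0.139% for the second. For each of the 3, Fisher's exact test gave p = 0.0286, the smallest it can give, and an adjusted p of 1 over all regions, where 313 of 96872 reached the same p. So 0 regions passed. Of these 3 regions, 2 lie in introns of FOXO3 and 1 in an intron of FOXP1.

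The first FOXO3 region, chr6:108562430-108562843, was centred 1.7 kb after the canonical TSS, behind the promoter peak. Its folds in E92K libraries 1 to 4 were 1.71, 1.82, 1.90 and 2.26, and its −log10 q values 3.63, 6.65, 6.61 and 12.1. The pileups of 81, 112, 99 and 112 fragments stood on local backgrounds of 46.9, 60.9, 51.6 and 48.9, so these were small rises on a high shoulder. All 4 peaks shared 285 bp.

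The second FOXO3 region, chr6:108661447-108662086, lay 100.8 kb after the canonical TSS. Its midpoint was 5421 bp after the FOXO3 TSS at 108656346, which was open in no library. The folds were 4.19, 3.72, 4.49 and 4.03, on pileups of 16 or 17 fragments over backgrounds of 2.79 to 3.57, and the −log10 q values were 5.42, 4.57, 5.95 and 5.37. The peaks shared 256 bp and stood at the 20.6th to 29.8th percentile of their lists. These were weak peaks, and a library without the peak may still have had reads there.

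The FOXP1 region, chr3:71370046-71371198, lay 213.1 kb after the canonical TSS. Its folds were 3.84, 2.84, 3.72 and 3.73, with −log10 q of 5.25, 2.32, 4.28 and 4.05. No base was covered in all 4 libraries: the peak of library 2 ended at 71370454 and that of library 1 began at 71370543. They were joined through the peak of library 3, and without E92K replicate 3 the region no longer separated the groups. The region is thus joined from weak, staggered peaks.

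Sequences around the strongest summits of the FOXO3 regions are printed because these regions separated the groups. In order they are chr6:108562692-108562892 and chr6:108661540-108661740 of hg38, plus strand, with capitals kept for motif matches.
FOXO3 near the TSS: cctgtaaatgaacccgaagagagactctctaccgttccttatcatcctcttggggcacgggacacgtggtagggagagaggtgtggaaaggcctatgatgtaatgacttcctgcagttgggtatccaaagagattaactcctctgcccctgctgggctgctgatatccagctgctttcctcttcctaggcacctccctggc
FOXO3 far intron: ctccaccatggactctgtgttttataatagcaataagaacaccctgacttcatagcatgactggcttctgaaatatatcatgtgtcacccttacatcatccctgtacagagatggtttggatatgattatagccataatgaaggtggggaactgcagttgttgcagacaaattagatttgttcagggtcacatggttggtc
Neither held the forkhead core, its variant, the GC box, the CCAAT box or the ETS core, so neither has capitals. Their GC contents were 53.2% and 41.3%, against 70.1% around the FOXA2 summit above.

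**Figure D3:**
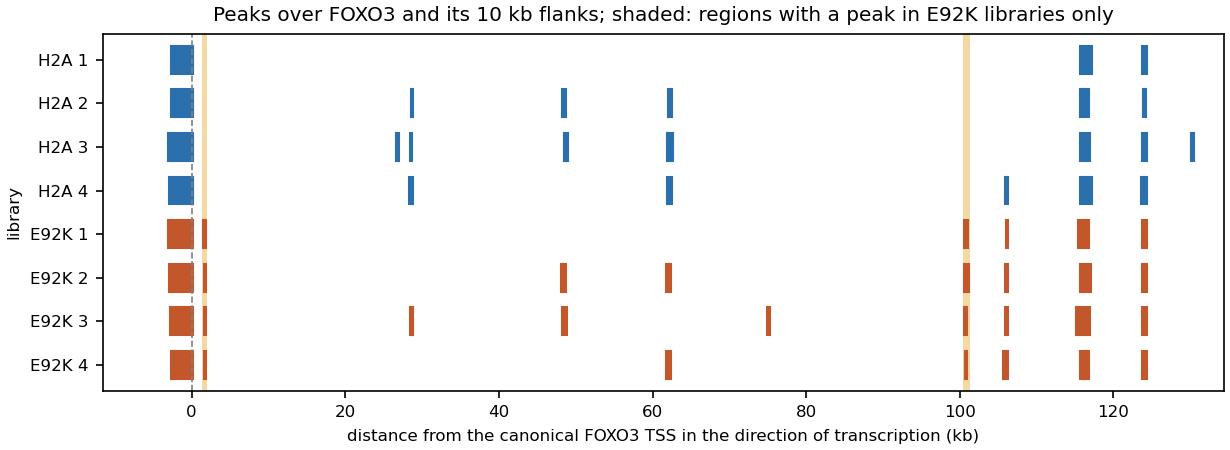
Bars are peaks of each library (rows; H2A blue, E92K orange) over FOXO3 and 10 kb on each side, by distance in kb from the canonical TSS (dashed). The promoter and the far end of the gene have peaks in all 8 libraries, and the shaded regions at 1.7 and 100.8 kb have them in the 4 E92K libraries only.

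**Figure D4:**
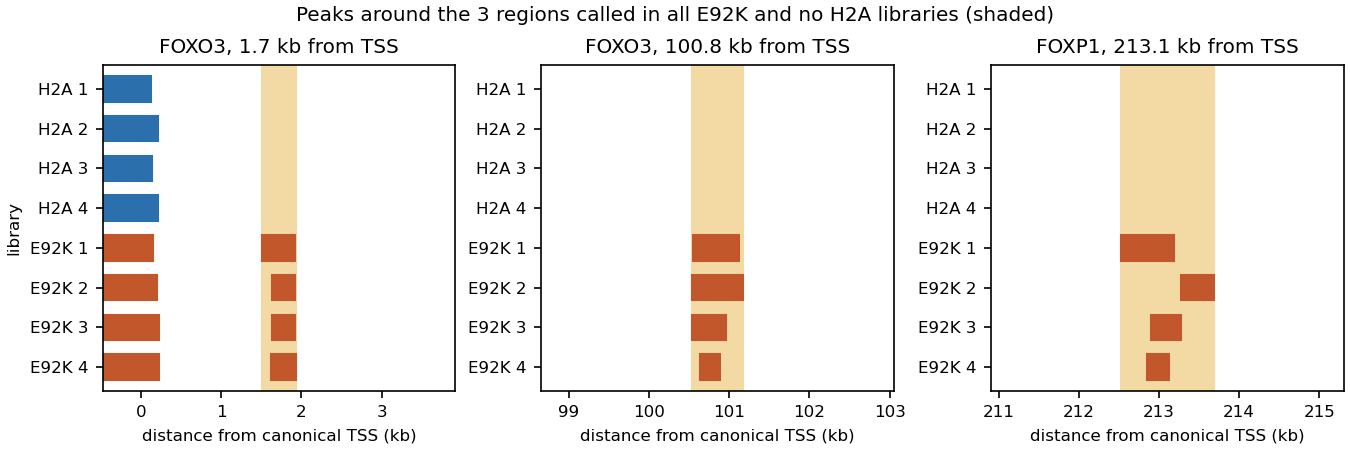
Peaks of each library (rows; H2A blue, E92K orange) around the 3 shaded regions, by distance in kb from the canonical TSS of the gene. In FOXO3 the 4 E92K peaks line up, sharing 285 and 256 bp, and in FOXP1 they are staggered and share 0 bp.

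The calls depended on how a peak was counted. With only peaks of −log10 q of 5 or more, the regions of FOXO3 had 3 E92K libraries each and that of FOXP1 had 1, so none of the 3 separated the groups. With equal numbers of peaks per library the FOXO3 regions kept their 4 E92K libraries and FOXP1 had 3. Where a peak had to cover 50% of the region, the first FOXO3 region kept 4, the second had 3 and FOXP1 had 1.

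Regions just short of separating the groups were 7, of which 2 leaned towards E92K and 5 towards H2A. These were picked after their values were seen. The share of such regions over all regions is not given here, so neither their number nor their lean can be set against a background. FOXO3 had a further intronic region 106 kb after the canonical TSS with a peak in 1 H2A and 4 E92K libraries. FOXP1 had one at 531.4 kb in 1 H2A and 4 E92K libraries and another at 166.7 kb in 4 H2A and 1 E92K libraries. FOXR1, a gene of the germ line, had a region 7.9 kb after its closed TSS in 4 H2A and 1 E92K libraries. The other 3, of which FOXP1 held 1 and FOXP2 held 2, had a peak in 3 H2A and 0 E92K libraries. Each gave p = 0.143 in Fisher's exact test, two-sided, before adjustment.

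Over gene and flanks together, the family had 191, 182, 183 and 188 peaks in H2A libraries 1 to 4 and 180, 187, 177 and 181 in E92K libraries 1 to 4. FOXO3 had 4, 6, 8 and 6 against 6, 8, 9 and 8, FOXP1 had 36, 34, 31 and 35 against 35, 35, 38 and 33, and FOXP2 had 19, 18, 22 and 20 against 17, 19, 18 and 16. At none of the 52 members did all E92K libraries lie above or below all H2A libraries. Of 17821 coding genes with such peaks 0.152% lay above and 0.651% below.

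Peak width gave a measure that could be tested at the 32 promoters open in all libraries. Widths of the peaks touching a promoter were summed, put on the log2 scale and centred per library, and limma was fitted over all 13341 such coding promoters with Benjamini-Hochberg adjustment. It called 0 promoters (0% wider and 0% narrower in E92K), with 745 under an unadjusted p of 0.05 and a smallest adjusted p of 0.107. Among the forkhead promoters 0 were called and 1, FOXO1, had an unadjusted p under 0.05. The median log2 difference, E92K minus H2A, was -0.02 over the 32 and 0.01 over all, and 15 of the 32 were above 0, or 11 without the centring.

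At FOXO1 the peaks were 903, 1285, 1359 and 1267 bp wide in H2A and 857, 871, 1120 and 820 bp in E92K. E92K libraries 1, 2 and 4 were narrower than every H2A library, and library 3 lay inside the H2A range. The log2 difference in limma was -0.35 (SE 0.15), with an adjusted p of 0.883. FOXJ2, a widely expressed member, had the largest estimate in the other direction, 0.17 (SE 0.11), and FOXD2 and FOXN2 were measured most closely, at 0.02 each (SE 0.05 and 0.04).

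**Figure D5:**
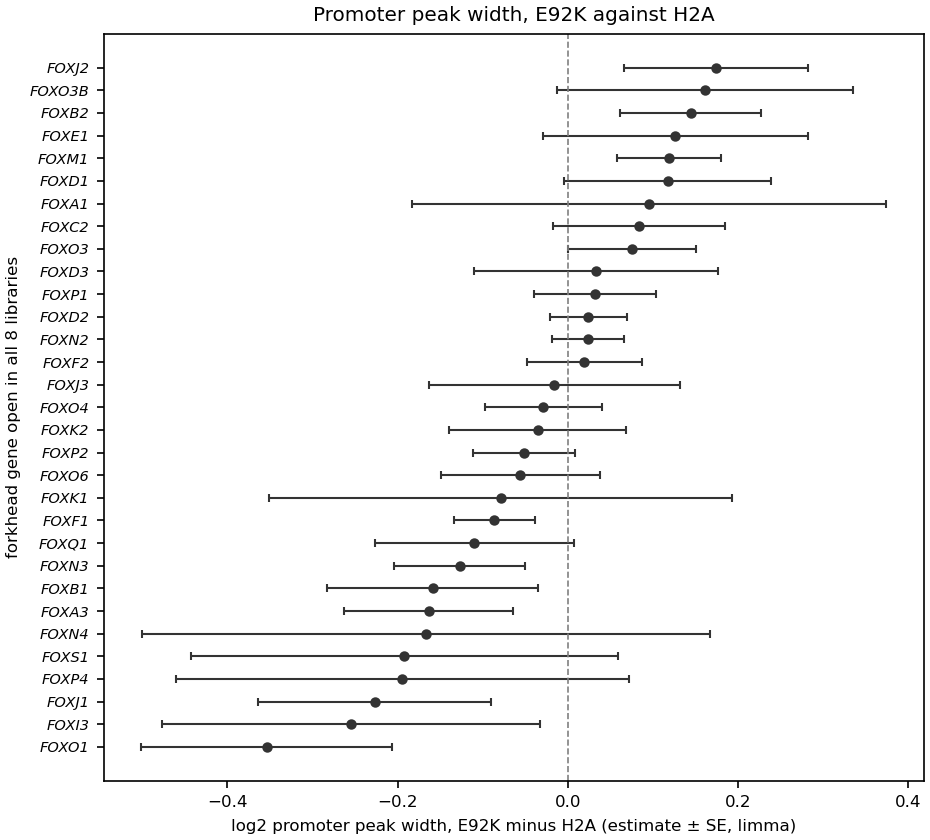
Points are limma estimates of the log2 promoter peak width, E92K minus H2A, with bars of 1 SE, for 31 forkhead promoters open in all 8 libraries. They run from -0.35 at FOXO1 to 0.17 at FOXJ2 around the dashed line at 0, and none passed adjustment.

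Genes around the family were taken from lists by role. Of 28 regulators of FOXO factors, such as INSR, the insulin receptor, and AKT1, the kinase that phosphorylates them, 27 had promoters open in all libraries and SGK2 in some. Of 20 FOXO targets 16 were open in all, the gluconeogenic PCK1 in some, and G6PC1, IGFBP1 and TRIM63, of liver and muscle, in none. All 18 targets of FOXM1, among them CCNB1 and PLK1 of mitotic entry, were open in all libraries. The 10 liver targets of FOXA factors were mostly shut, with 2 open in all, 3 in some and 5, including ALB and AFP, in none.

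Of 14 genes of the motile cilium that FOXJ1 drives, 9 were open in all libraries, HYDIN in some and DNAI2, DNAH9, TEKT2 and SPAG6 in none. The list of SMAD partners and nodal pathway genes of FOXH1 had 3 of 8 open in all, LEFTY1, LEFTY2 and TDGF1 in some, and NODAL and GDF3 in none. Of 9 partners of FOXK factors, such as the deubiquitinase BAP1, 8 were open in all and MBD6 in some. In every one of these lists 0 promoters separated the groups and 0 were called by limma on width, at the background shares given above.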

How the data were processed

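Chromatin accessibility was measured by ATAC-seq in 8 HEK293T libraries, 4 per group, grouped by their titles. The build is hg38, per the labels. Not given in the sources used here were the aligner, peak caller, Tn5 shift and filters, and each can change peak edges and calls. Each library has its own peak list. Deposited columns used were the peak position, the summit offset, the fold (a ratio of summit to local background) and the −log10 p-value and −log10 q-value; the deposited score is a whole number near 10 times the −log10 q and was only checked. The smallest deposited −log10 q was 2, so weaker peaks are missing. Pileups and backgrounds were recovered from fold and p as a Poisson test, within 0.001 of −log10 p, in at least 99.87% of 3000 summits per library.

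Genes came from GENCODE version 44, and sequences from hg38. A promoter spanned 1000 bp each side of every TSS of the gene's basic protein-coding transcripts and gene spans were extended by 10 kb. Presence was tested by Fisher's exact test (scipy 1.17.1) and log2 peak width by limma 3.58.1 in R 4.3.3 without a replicate block. Both were adjusted over all genes or regions at 0.05, and the scripts were tested on simulated data. With widths drawn from the real means and spreads, limma recovered 50 of 100 log2 changes of 0.5 and 87 of 100 of 1. Of its 149 calls there 12 were false, and small width changes can thus go uncalled. Values per library are given for members that separate the groups, are open in some libraries or pass the width test, for the 6 strongest by percentile, and for FOXM1, FOXO1, FOXO3, FOXK1, FOXK2, FOXC1, FOXD3 and FOXP1; a gene and a sequence that this rule also takes are not reported here. Members and lists were chosen with earlier results of these data known. Alternatives varied the window, the flank, the q minimum, the number of peaks, the overlap rule, the width measure and the libraries; the starts of every annotated transcript were added after seeing the data.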

Additional observations from a re-analysis of the deposited data

Results flagged for a closer look

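Groups of 4 values were screened for a library far from the other 3, where chance picks about 1 in 20. The 30 groups were folds at the named promoters and the counts of open forkhead promoters in H2A and in E92K. A single one stood out: in E92K library 4 the FOXP4 promoter had a fold of 9.81, against 8.42 to 8.64 in the other E92K libraries. FOXP4 encodes a forkhead factor of lung and gut epithelium.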

How the results depend on the processing

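The forkhead promoters open in all libraries numbered 28 to 35 under the other windows and peak rules, and no fewer than 32 without any single library. Forkhead promoters open in some libraries numbered 4 with −log10 q of 5 or more, with the summit in the window and with 50% of the peak in the window; the last also moved the mean number open, E92K minus H2A, from 0 to -1.25. With flanks of 50 kb, 414 regions fell at forkhead genes, 199 in all libraries and 1 in H2A only. Regions in E92K only numbered 1 with −log10 q of 5 or more and 1 where a peak had to cover 50% of the region, which also left 77 regions in all libraries. Leaving out 1 library at a time gave 0 to 2 regions at forkhead genes in H2A only (2 without H2A replicate 1) and 2 to 5 in E92K only (5 without H2A replicate 4, 2 without E92K replicate 3), and over all regions 270 to 369 and 217 to 321. Coding promoters open in H2A only numbered 2 with 500 bp windows and 7 to 12 without 1 library. Those in E92K only numbered 3 with 500 bp windows, 2 at canonical TSSs, 2 with −log10 q of 5 or more, 2 with equal peak numbers, 3 with the summit and 3 with 50% of the peak in the window, and 1 to 8 without 1 library; with every annotated transcript, chosen after seeing the data, they numbered 2. By width, 4 coding promoters were called from the strongest peak only and 0 to 4 without 1 library; no forkhead promoter was. With a replicate block limma called 0 (706 under an unadjusted p of 0.05, smallest adjusted p 0.941). In width deviations from the group means, same-numbered libraries correlated at -0.15, -0.04, -0.02 and -0.14, and none correlated best with its own number. Peak width thus gave no sign of pairing, but it cannot tell whether same-numbered libraries were prepared together. Except for the missing libraries and wider or narrower windows, which change what is counted by construction, the cause was not tested. Depth limits weak peaks: at pileups of 13 to 18 fragments, as at the FOXP1 region, absence from a list is not absence of reads.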
